A study of Bos taurus with 32 samples.

Results

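The let-7 family of microRNAs (miRNAs) was followed in the fat of beef steers on a control or a high fat diet. A miRNA was counted as a member when its array name began with bta-let-7, which took in 9 of the 672 miRNAs on the array: bta-let-7a, bta-let-7b, bta-let-7c, bta-let-7d, bta-let-7e, bta-let-7f, bta-let-7g, bta-let-7i and bta-let-7a*. The first 8 are mature miRNAs of the main strand, and bta-let-7a* is the opposite strand of a let-7a precursor. The 8 main strand members were detected on all 32 arrays, and bta-let-7a* was detected on 13.

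miRNAs are short RNAs that pair with messenger RNAs and lower their translation or stability. The let-7 family is one of the oldest in animals. Its main strand members share a seed, the stretch near the 5′ end that chooses targets, and differ by a few bases elsewhere. They are scarce in early embryos and rise as cells differentiate, the RNA-binding protein LIN28 blocks the maturation of their precursors, and HMGA2, a chromatin protein that promotes the growth of fat cell precursors, is among their best known targets.

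Hereford × Aberdeen Angus steers were fed either the control diet (8 steers) or the same type of ration made high in fat with flaxseed (8 steers), and each steer gave subcutaneous fat (backfat) and visceral fat (perirenal). These made 4 groups of 8 samples, each sample hybridised to 1 array, and a steer's 2 depots are paired samples. Every group was hybridised on a slide of its own and every diet scanned in a session of its own, so the effects of slide and of session cannot be told apart from those of the groups and diets. Fat tissue holds fat cells, vessel cells and blood cells, and in such bulk samples fewer cells of a type and less of a miRNA per cell cannot be told apart.

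The arrays of the 2 diets differed in brightness. The summed intensity of the detected miRNAs ranged from 25966 to 79240 in control steers and from 96838 to 366671 in high fat steers, with no overlap, while the labelling spike-ins, RNA added in a fixed amount before labelling, had a log2 intensity of 10.87 to 11.65 and of 10.09 to 11.18. No spot of a miRNA was saturated. Of the 5 fat miRNAs listed as markers, bta-miR-103, bta-miR-378 and bta-miR-365-3p were detected on every array. The others, bta-miR-143 and bta-miR-193a-3p, split by diet. Neither was missed in any high fat sample. Among control steers bta-miR-143 was found in 2 subcutaneous and 3 visceral samples, and bta-miR-193a-3p in 4 and 3. Of 7 muscle miRNAs, bta-miR-208a and bta-miR-208b were detected on none and bta-miR-1 on 16 of 16 high fat arrays and 1 control array; the summed scaled level of the 7 was 0.00 to 0.133 in the control groups and 0.0178 to 0.228 in the high fat groups. The endothelial bta-miR-126 had a scaled level of 0.578 to 2.42 on control and 3.45 to 7.96 on high fat arrays. The summed level of 3 red blood cell miRNAs was 0.109 to 0.198 in control and 0.0690 to 0.135 in high fat subcutaneous fat, and 0.191 to 0.368 and 0.0674 to 0.134 in visceral fat, where the diets did not overlap. Detection of bta-miR-451, 1 of these 3, went the other way: 8 of 8 high fat arrays in each depot, but 3 subcutaneous and 2 visceral control arrays. Of the 3 red blood cell miRNAs only bta-miR-486 was detected on every array. The summed level of 4 white blood cell miRNAs overlapped between diets in both depots (0.164 to 0.455 on control and 0.203 to 0.992 on high fat arrays). Even so, bta-miR-142 was detected on 16 high fat arrays and 0 control arrays. The part of other cell types in the let-7 values was not tested.

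The let-7 family took up a smaller share of the array signal under the high fat diet. Its members made up 51.6% to 64.8% of the summed intensity on the control subcutaneous arrays (median 61.1%) and 19.1% to 23.9% on the high fat subcutaneous arrays (median 21.0%). In visceral fat the share was 62.5% to 73.8% (median 67.2%) on control and 16.6% to 19.9% (median 19.0%) on high fat arrays. The diets did not overlap in either depot. The share is one of intensity, which depends on how well each probe binds and labels, so it is not a share of molecules.

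The main question was how each member differed with diet. Intensities were scaled by dividing each array by the 75th percentile of the 91 miRNAs detected on all arrays, and are given as log2 of the scaled value. On this scale 6 members (bta-let-7a, bta-let-7b, bta-let-7c, bta-let-7d, bta-let-7e and bta-let-7f) were lower under the high fat diet in both depots, bta-let-7g was higher in both, and bta-let-7i did not pass the test in either (limma, Benjamini-Hochberg adjusted p under 0.05 over 233 miRNAs). The background was large. In subcutaneous fat 34.3% of the 233 miRNAs tested were lower and 41.6% higher, and in visceral fat 29.6% were lower and 42.1% higher. The 233 include miRNAs detected on as few as 8 arrays, while the 8 members belong to the 91 detected on all arrays. The share called among the 91 was not counted, nor was the share of all miRNAs whose diets did not overlap. Over the 8 members the median log2 difference was -1.65 (subcutaneous) and -1.58 (visceral), against -0.91 and -0.80 over the 91 miRNAs detected on all arrays, the brightest part of the table, and 0.10 and 0.17 over all 233. These signs hold for this scaling only and several turned under others, as set out below.

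bta-let-7b and bta-let-7c stood at the low end of the family. In subcutaneous fat bta-let-7b lay between 5.20 and 6.41 (median 5.43) on the control arrays and between 2.53 and 3.003 (median 2.79) on the high fat arrays. In visceral fat it lay between 5.46 and 6.50 (median 6.11) and between 2.47 and 3.40 (median 2.82). The groups were far apart, and the difference was -2.75 (SE 0.16, limma adjusted p = 4.2e-16) in subcutaneous and -3.12 (SE 0.16, adjusted p = 1.8e-17) in visceral fat, a 6.73-fold and an 8.72-fold lower value. Of the 91 miRNAs detected on all arrays it had the tenth lowest difference in subcutaneous fat and the third lowest in visceral fat.

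bta-let-7c went from 3.35 to 4.50 (median 3.71) in control to 0.99 to 1.31 (median 1.10) in high fat subcutaneous arrays. In visceral fat it went from 3.38 to 4.26 (median 3.99) to 0.65 to 1.503 (median 1.07). Again no high fat array reached a control array. The differences were -2.63 (SE 0.15, limma adjusted p = 3.5e-16) and -2.89 (SE 0.15, adjusted p = 2.3e-17).

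bta-let-7a, bta-let-7d and bta-let-7e formed a middle set with nearly the same difference. bta-let-7a ranged from 4.51 to 5.03 (median 4.799) on control and from 3.05 to 3.31 (median 3.17) on high fat subcutaneous arrays, a difference of -1.60 (SE 0.11, limma adjusted p = 1.7e-14). In visceral fat it ranged from 4.60 to 5.26 (median 4.81) and from 2.96 to 3.57 (median 3.31), a difference of -1.53 (SE 0.11, adjusted p = 4.6e-14). The 2 diets did not overlap for any of the 3 members in either depot. bta-let-7d had a difference of -1.77 (SE 0.10, limma adjusted p = 3.7e-16) in subcutaneous and -1.74 (SE 0.10, adjusted p = 4.5e-16) in visceral fat. For bta-let-7e it was -1.70 (SE 0.15, limma adjusted p = 9.6e-12) and -1.63 (SE 0.15, adjusted p = 2.7e-11).

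bta-let-7f moved less than the middle set. It lay between 2.84 and 3.38 (median 3.12) on control and between 2.18 and 2.47 (median 2.35) on high fat subcutaneous arrays, and between 2.88 and 3.68 (median 3.27) and between 2.22 and 2.72 (median 2.50) in visceral fat. The differences of -0.78 (SE 0.10, limma adjusted p = 6.1e-08) and -0.79 (SE 0.10, adjusted p = 5.3e-08) were close to the median of the 91 miRNAs detected on all arrays. Its 2 probes did not give the same size: the brighter probe gave -0.86 in both depots, and the dimmer one -0.29 in subcutaneous and -0.28 in visceral fat.

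bta-let-7g and bta-let-7i stood at the high end. bta-let-7g lay between -0.68 and 0.33 (median -0.03) on control and between 0.26 and 0.77 (median 0.55) on high fat subcutaneous arrays. In visceral fat it lay between -0.60 and 0.85 (median 0.13) and between 0.47 and 0.87 (median 0.60). The groups overlapped in both depots, and the difference was 0.65 (SE 0.16, limma adjusted p = 6.3e-04) and 0.50 (SE 0.16, adjusted p = 0.0068), a 1.57-fold and a 1.42-fold higher value. The control arrays spread more widely for this member, with an SD of 0.32 and 0.51 against 0.18 and 0.13 under the high fat diet.

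bta-let-7i ranged from 0.33 to 1.14 (median 0.83) on control and from 0.36 to 1.08 (median 0.88) on high fat subcutaneous arrays. In visceral fat it ranged from -0.02 to 1.54 (median 0.57) and from 0.01 to 0.69 (median 0.41). The ranges covered each other in both depots. The difference was 0.03 (SE 0.17, limma adjusted p = 0.89) and -0.31 (SE 0.17, adjusted p = 0.11).

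**Figure D1:**
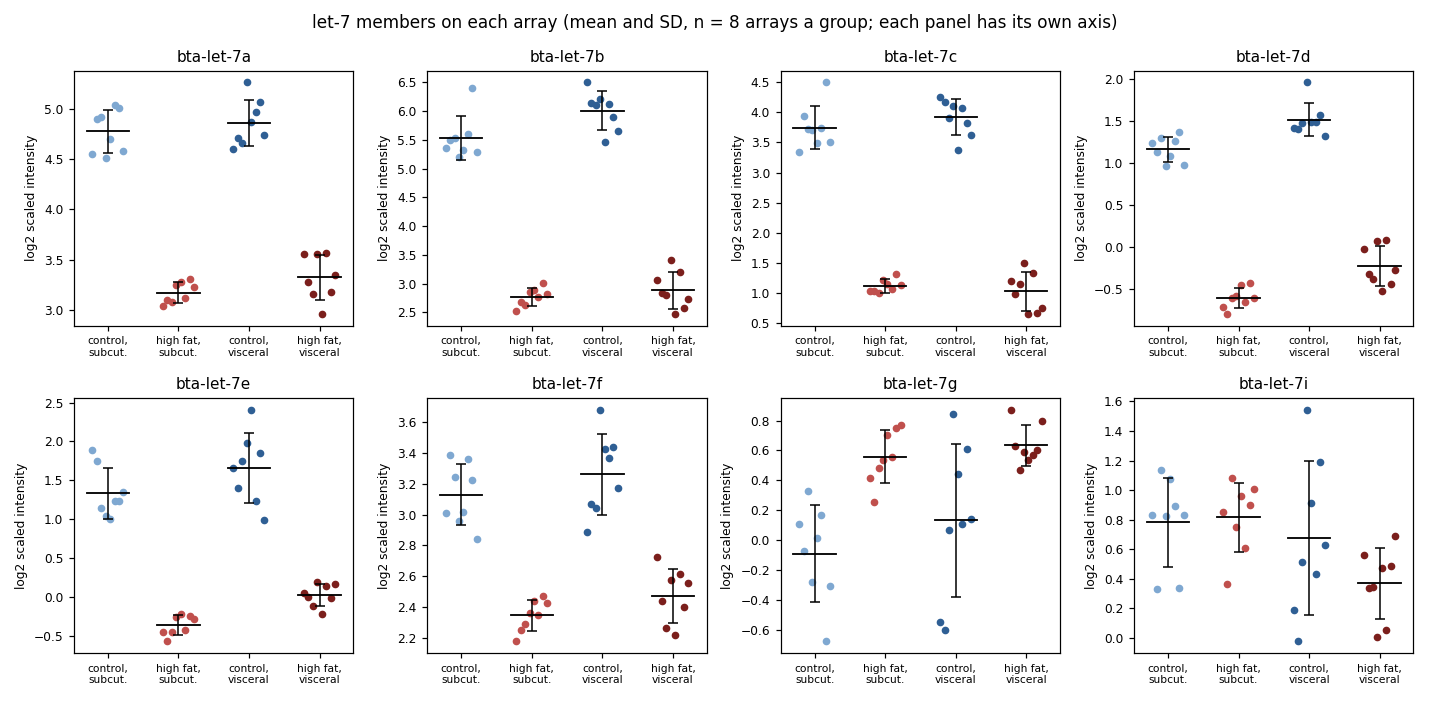
log2 scaled intensity (vertical axis, one scale per panel) of the 8 main strand let-7 members on each array in the 4 groups; points are arrays, the long bar is the mean and the error bar the SD of 8 arrays. bta-let-7b, bta-let-7c, bta-let-7a, bta-let-7d, bta-let-7e and bta-let-7f show no overlap between diets within a depot, while bta-let-7g and bta-let-7i do.

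Apart from bta-let-7f, the 2 probes of a member gave nearly the same difference. Each of the 8 members had 2 probes of 10 spots each, and in the other 7 members the diet differences of the brighter and the dimmer probe lay within 0.17 of each other in both depots. The members' sequences are near-identical, and how far a probe also binds another member was not tested.

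Whether a member appeared higher or lower depended on the scaling, since the arrays of the 2 diets differed in total brightness. Without any scaling bta-let-7g was higher by 3.56 in subcutaneous and 2.92 in visceral fat, and bta-let-7a, bta-let-7d, bta-let-7e, bta-let-7f and bta-let-7i were higher too. In the values the authors deposited bta-let-7g had a difference of -0.75 in subcutaneous and -0.57 in visceral fat, and bta-let-7i of -1.37 in both. bta-let-7b had a difference of 0.16 and -0.70 without scaling, 0.41 and -0.28 by the labelling spike-ins, -0.74 and -1.25 by bta-miR-181a, and -4.15 and -4.19 in the deposited values. The median of the 91 miRNAs detected on all arrays moved with the scaling as well, from -5.05 (75th percentile over all miRNAs) to 2.25 (spike-ins) in subcutaneous fat. A scaling of whole arrays shifts that median and the members alike. Relative to it, bta-let-7b had a difference of -1.84 in subcutaneous and -2.33 in visceral fat, and bta-let-7g one of 1.56 and 1.30.

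The order of the members did not depend on a scaling that divides an array by 1 number. From lowest to highest difference it ran bta-let-7b, bta-let-7c, bta-let-7d, bta-let-7e, bta-let-7a, bta-let-7f, bta-let-7i and bta-let-7g in both depots, since such a scaling shifts all members alike. Quantile normalization, normexp background correction and the spot intensities reordered members between the ends: by quantile normalization bta-let-7i stood below bta-let-7f in subcutaneous fat, and bta-let-7f and bta-let-7i below bta-let-7a in visceral fat, where bta-let-7a had a difference of 0.00 in both depots. Under these 3 bta-let-7g remained the highest and bta-let-7b or bta-let-7c the lowest in both depots. In the middle set bta-let-7d and bta-let-7e, and bta-let-7e and bta-let-7a, are neighbours in this order that did not differ beyond their spread.

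**Figure D2:**
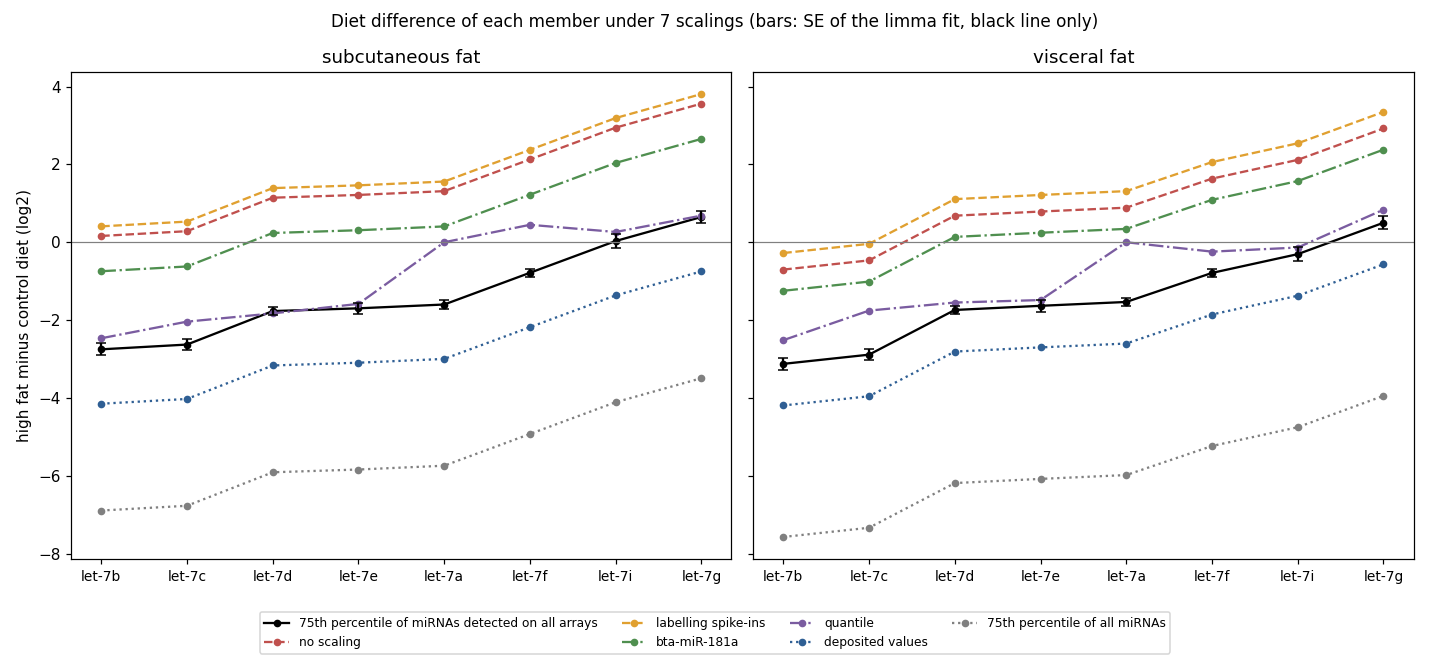
Difference between high fat and control diet (log2, vertical axis) of each member under 7 scalings (lines), in subcutaneous and visceral fat; the error bars are the SE of the limma fit for the black line. All lines but that of quantile normalization run parallel from bta-let-7b to bta-let-7g, and they lie at different heights, from -3.49 to 3.81 for bta-let-7g in subcutaneous fat.

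The members were therefore compared with each other within arrays. For each of the 28 pairs the log2 ratio was taken on every array. This removes any factor that multiplies the whole array, but not an added background or a response that changes with brightness. How far either acts on the ratios between diets was not tested. On control arrays bta-let-7g had the lowest median intensity of the 8 members (263 in subcutaneous and 192 in visceral fat) and bta-let-7b the highest (10745.5 and 12341.7). The 8 high fat and 8 control arrays of a depot were compared by a two-sided exact permutation test, with Benjamini-Hochberg adjustment over the 56 tests of both depots. The ratio changed in 25 of 28 pairs in subcutaneous and 26 of 28 in visceral fat. In 22 and 21 pairs the diets did not overlap, and these had the smallest p the permutations can give, 1.6e-04. After normexp background correction 16 pairs passed in subcutaneous fat. Pairs of miRNAs outside the family were not counted, so these counts are not shown to be particular to let-7.

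The largest change was that of bta-let-7g against bta-let-7b. The log2 ratio of bta-let-7b over bta-let-7g lay between 5.20 and 7.08 (median 5.45) on control and between 2.05 and 2.43 (median 2.20) on high fat subcutaneous arrays. In visceral fat it lay between 5.02 and 7.05 (median 5.75) and between 1.93 and 2.81 (median 2.20). No high fat array came near a control array. Only the change of such a ratio is of interest, as its level includes the binding of the 2 sets of probes. bta-let-7g gained 3.40 (SE 0.22, exact permutation adjusted p = 2.0e-04) on bta-let-7b in subcutaneous and 3.63 (SE 0.28, adjusted p = 2.0e-04) in visceral fat, which is 10.6-fold and 12.3-fold. A scaling that multiplies a whole array cannot change this gain, so its holding there is no test of it. Quantile normalization, normexp and the spot intensities could change it, and under these the gain lay between 3.07 and 3.84.

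The pairs whose ratio did not pass the test lay inside the middle set or at the low end. bta-let-7e over bta-let-7d differed by 0.07 (SE 0.12, exact permutation adjusted p = 0.56) in subcutaneous and 0.11 (SE 0.15, adjusted p = 0.53) in visceral fat. bta-let-7e over bta-let-7a differed by -0.10 in both depots (SE 0.15 and 0.16, exact permutation adjusted p = 0.56 in each). bta-let-7c over bta-let-7b differed by 0.12 (SE 0.07, exact permutation adjusted p = 0.099) in subcutaneous fat and by 0.24 (SE 0.05, adjusted p = 4.0e-04) in visceral fat. bta-let-7g also separated from bta-let-7i: bta-let-7i over bta-let-7g changed by -0.62 (SE 0.11, exact permutation adjusted p = 5.7e-04) in subcutaneous and -0.81 (SE 0.08, adjusted p = 2.0e-04) in visceral fat.

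**Figure D3:**
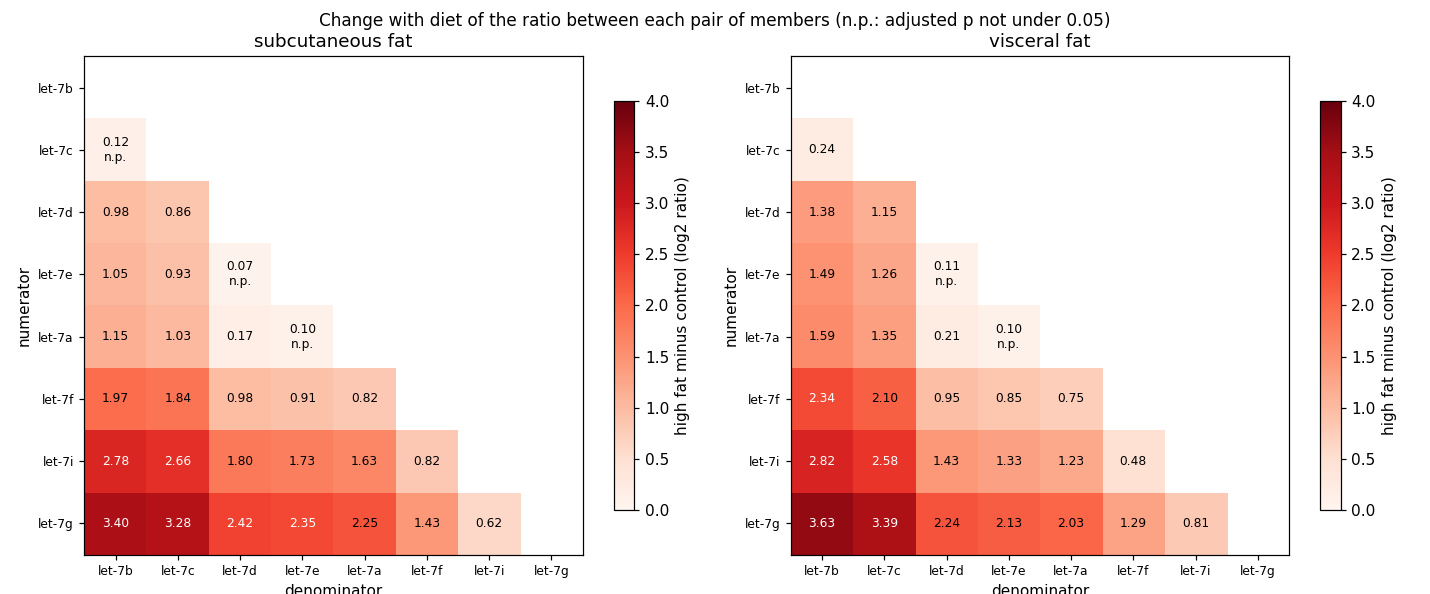
Change with diet of the log2 ratio of each pair of members (numerator on the vertical, denominator on the horizontal axis; positive: the numerator gained on the denominator under the high fat diet), in subcutaneous and visceral fat. The change grows toward the bottom left corner, bta-let-7g over bta-let-7b, and n.p. marks pairs past no threshold.

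The ratio of bta-let-7b to bta-let-7g was set against the brightness of the array, since diet and brightness did not overlap: the log2 summed intensity of miRNAs outside the family ran from 13.10 to 14.77 in control steers and from 16.24 to 18.09 in high fat steers. Within a group of 8 arrays Pearson's r was -0.58 (Spearman's rho -0.48) in control subcutaneous, -0.36 (rho -0.43) in high fat subcutaneous, -0.43 (rho -0.26) in control visceral and 0.12 (rho 0.19) in high fat visceral fat. None of these 4 relations passed an exact permutation test, with adjusted p from 0.35 to 0.78 for r and from 0.60 to 0.66 for rho, and the unadjusted p for r ran from 0.087 to 0.78. Without the 2 arrays farthest from the median brightness r was 0.11, -0.35, -0.26 and 0.36. Across diets the part of brightness was not tested, as no brightness is shared by both.

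**Figure D4:**
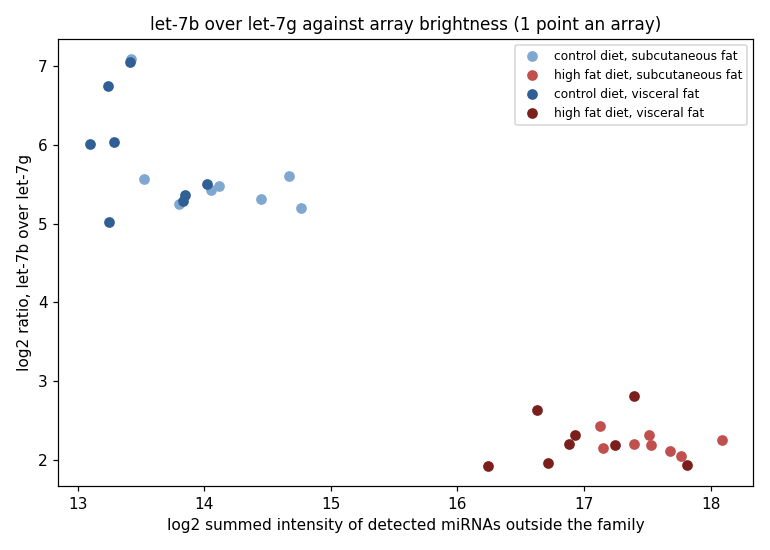
log2 ratio of bta-let-7b to bta-let-7g (vertical axis) against the log2 summed intensity of the detected miRNAs outside the family (horizontal axis), 1 point for each of 32 arrays coloured by group. The control arrays form a dim cluster with ratios of 5.02 to 7.08 and the high fat arrays a bright one with ratios of 1.93 to 2.81.

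The members did not vary alike within groups either. Deviations from the 4 group means over the 32 arrays, a description only because all points share array brightness, correlated with r = 0.93 between bta-let-7b and bta-let-7c, 0.92 between bta-let-7a and bta-let-7f, 0.86 between bta-let-7a and bta-let-7d, and 0.83 between bta-let-7g and bta-let-7i. Between the ends of the family r over the 32 arrays was -0.28 for bta-let-7b with bta-let-7g, -0.39 for bta-let-7b with bta-let-7i and -0.47 for bta-let-7c with bta-let-7i, but the groups differed in sign. For bta-let-7b with bta-let-7g it was -0.51 and -0.44 in subcutaneous and visceral fat of control steers and 0.75 and 0.13 in those of high fat steers. In high fat subcutaneous fat bta-let-7b and bta-let-7c had r = 0.14 and 0.18 with bta-let-7i. Outside the family, bta-let-7b was most like bta-miR-423-5p (r = 0.78), bta-miR-193a-5p (0.75) and bta-miR-320 (0.72). bta-let-7g was most like bta-miR-26b (r = 0.90), bta-miR-15a (0.88) and bta-miR-30c (0.87).

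The miRNAs most like bta-let-7b and those most like bta-let-7g also differed with diet in the same direction as that member. bta-miR-423-5p had a difference of -2.76 in subcutaneous and -3.24 in visceral fat, bta-miR-193a-5p -2.23 and -2.43, and bta-miR-320 -2.07 and -2.14. bta-miR-26b had 1.78 and 1.47, bta-miR-15a 2.57 and 2.50, and bta-miR-30c 0.94 and 1.68. All 6 passed the test in both depots on this scaling. Of the 233 miRNAs tested, 34.3% were lower and 41.6% higher in subcutaneous fat. In visceral fat 29.6% were lower and 42.1% higher.

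The genes of the family lie in several places in the cattle genome. In the RefSeq table for ARS-UCD2.0, which lists 11 let-7 genes, MIRLET7A-3 lies next to MIRLET7B, MIRLET7A-1 next to MIRLET7F-1 and MIRLET7D, MIRLET7F-2 next to MIR98, MIRLET7C next to MIR99A and MIR125B-2, MIRLET7A-2 next to MIR100 and MIR125B-1, and MIRLET7E between MIR99B and MIR125A. MIRLET7G and MIRLET7I have none of these genes beside them. bta-let-7a can come from 3 genes, bta-let-7f from 2 and bta-miR-125b from 2, and an array cannot separate them.

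miRNAs of neighbouring genes differed in how closely they kept together with diet. No ratio to a let-7 neighbour was taken for bta-miR-100, bta-miR-125a or bta-miR-125b, so the ranks here hold among the 6 pairs compared only. In log2 scaled intensity bta-miR-100 differed by 0.79 in subcutaneous and 0.94 in visceral fat. Its neighbour bta-let-7a differed by -1.60 and -1.53. bta-let-7c and bta-miR-99a lay furthest apart of the 6 neighbouring pairs compared: bta-miR-99a was higher by 1.23 (SE 0.20, limma adjusted p = 2.8e-06) in subcutaneous and 1.45 (SE 0.20, adjusted p = 1.6e-07) in visceral fat on the scale where bta-let-7c was lower. Their log2 ratio, bta-miR-99a over bta-let-7c, changed by 3.86 (SE 0.21) and 4.34 (SE 0.27), with no overlap between diets. Next of these 6 pairs came bta-let-7b over bta-let-7a, also from neighbouring genes. It changed by -1.15 (SE 0.10, exact permutation adjusted p = 2.0e-04) and -1.59 (SE 0.16, adjusted p = 2.0e-04), again with no overlap. By contrast bta-let-7d over bta-let-7a, from neighbouring genes, changed by -0.17 (SE 0.06, exact permutation adjusted p = 0.0044) and -0.21 (SE 0.05, adjusted p = 7.4e-04), and bta-let-7f over bta-let-7a by 0.82 (SE 0.04, exact permutation adjusted p = 2.0e-04) and 0.75 (SE 0.04, adjusted p = 2.0e-04).

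The other neighbouring pairs compared lay between. The log2 ratio of bta-miR-98 over bta-let-7f changed by 0.28 (SE 0.07) in subcutaneous and 0.33 (SE 0.07) in visceral fat, and that of bta-miR-99b over bta-let-7e by 0.79 (SE 0.16) and 0.92 (SE 0.15), with diets that overlapped in both depots for the latter. bta-miR-99b itself had a difference of -0.91 (SE 0.18, limma adjusted p = 5.9e-05) in subcutaneous and -0.71 (SE 0.18, adjusted p = 9.0e-04) in visceral fat, and bta-miR-100 of 0.79 (SE 0.19, adjusted p = 4.9e-04) and 0.94 (SE 0.19, adjusted p = 6.0e-05). bta-miR-125b had -0.07 (SE 0.16, limma adjusted p = 0.70) and 0.40 (SE 0.16, adjusted p = 0.028). bta-miR-125a was detected on 5 and 3 of 8 control arrays and 7 and 6 of 8 high fat arrays of subcutaneous and visceral fat. No difference is given for it, because its highest value in high fat subcutaneous fat, -7.94, lay below the common floor of -7.22. bta-miR-98, which has the let-7 seed but is named outside the family, had -0.50 (SE 0.12, limma adjusted p = 3.0e-04) and -0.45 (SE 0.12, adjusted p = 9.0e-04).

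In log2 scaled intensity the depot differences of every main strand member but bta-let-7i were smaller in size than its differences with diet. For bta-let-7i the depot difference was -0.11 in control steers and -0.45 in high fat steers. Its difference with diet was 0.03 for subcutaneous and -0.31 for visceral samples. On the control diet 2 of the 8 members were higher in visceral than in subcutaneous fat (bta-let-7b and bta-let-7d) and none was lower, where 6.87% of all miRNAs tested were higher and 12.0% lower. In high fat steers bta-let-7d was the 1 member called, higher, and none was lower, where 11.6% were higher and 14.6% lower. The members' median difference was 0.20 and 0.12 on the log2 scale, against 0.00 and 0.02 over all 233 miRNAs tested and 0.00 and 0.14 over the 91 detected on all arrays. These 3 calls hold for this scaling, and none of them was made without scaling, by the spike-ins, by bta-miR-181a or in the deposited values; without scaling 5 members were lower in visceral fat of high fat steers. By spot intensities bta-let-7d was not called on either diet (limma adjusted p = 0.25 and 0.060).

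bta-let-7d lay between 0.96 and 1.36 (median 1.18) in subcutaneous and between 1.31 and 1.95 (median 1.48) in visceral fat of control steers. In high fat steers it lay between -0.80 and -0.44 (median -0.61) and between -0.53 and 0.08 (median -0.30). It was higher in the visceral sample of 8 of 8 control steers and 6 of 8 high fat steers. The difference was 0.35 (SE 0.10, limma adjusted p = 0.0098) on the control and 0.38 (SE 0.10, adjusted p = 0.0050) on the high fat diet.

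bta-let-7b was higher in visceral fat in 7 of 8 control steers, by 0.48 (SE 0.16, limma adjusted p = 0.027), and its groups overlapped. With the steer as a replicate block it was no longer called. It was also lost on leaving out any of 5 control samples, the subcutaneous ones of steers 211, 307 and 410 and the visceral ones of steers 108 and 211, when the difference was 0.41 to 0.45. bta-let-7i and bta-let-7e did not pass the test on the high fat diet, although bta-let-7i was lower in visceral fat in 8 of 8 steers (difference -0.45, SE 0.17, limma adjusted p = 0.053) and bta-let-7e higher in 7 of 8 (difference 0.39, SE 0.15, adjusted p = 0.050).

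Ratios between members also moved with depot. They were tested within steers by an exact sign-flip test, whose smallest p with 8 steers is 0.0078, with adjustment over 56 tests. On the control diet 2 of 28 ratios changed: bta-let-7d gained 0.27 (SE 0.04, exact adjusted p = 0.031) on bta-let-7a in visceral fat, and bta-let-7c changed by -0.31 (SE 0.05, exact adjusted p = 0.031) against bta-let-7b, each in 8 of 8 steers; without control steer 405 the count was 6. On the high fat diet 16 of 28 changed. In 6 of these another member gained on bta-let-7i in visceral fat, and bta-let-7c was the only member whose ratio with bta-let-7i did not pass (exact adjusted p = 0.25). The largest was bta-let-7i over bta-let-7e, at -0.84 (SE 0.09, exact adjusted p = 0.031), with 8 of 8 steers alike. Without any 1 of the high fat steers none of the 16 passed, where the smallest p with 7 steers is 0.016.

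**Figure D5:**
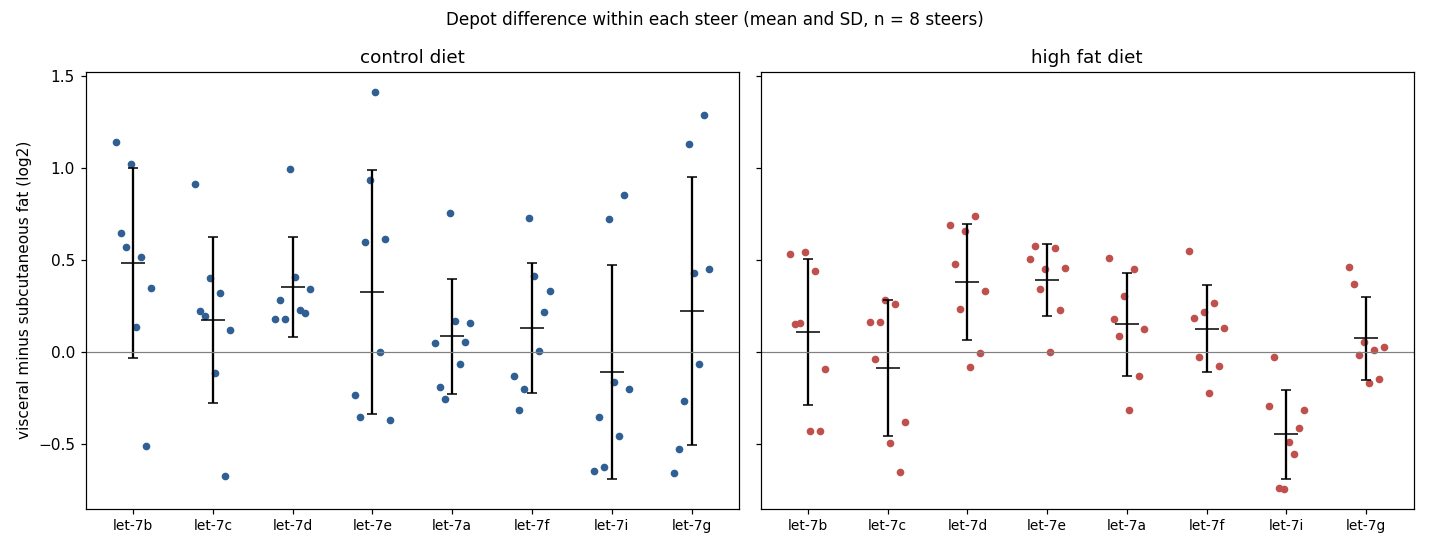
Visceral minus subcutaneous difference (log2 scaled intensity, vertical axis) of each member within each steer (points; mean and SD of 8 steers) on the control and the high fat diet. bta-let-7d lies above 0 in 8 of 8 control steers, and bta-let-7i below 0 in 8 of 8 high fat steers.

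No member's diet difference depended on the depot by the test for it. The interaction had an adjusted p of at least 0.55 for all 8 (limma), 0 of them with an unadjusted p under 0.05, where 1.72% of the 233 miRNAs were called. No alternative called a member for it.

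bta-let-7a*, the opposite strand, had no level that could be compared between diets. It was detected on 8 of 8 high fat subcutaneous arrays, 5 of 8 high fat visceral arrays and none of the control arrays, with intensities of 2.26 to 4.75. Its log2 scaled level where detected, -9.28 to -8.40, lay below the lowest level that a miRNA detected on a control array reached, which was -7.34 to -4.91 on the log2 scale according to the array. No control array reached down to the level seen under the high fat diet, so no fold or difference is given. At least 1 of its probes was well above background on 6 high fat subcutaneous and 4 high fat visceral arrays.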

How the data were processed

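miRNA was measured in 32 fat samples on one-colour Agilent arrays of 672 bovine miRNAs, and each tested member had 2 probes of 10 spots. The deposited scanner files hold the intensity of each spot and of each miRNA (total gene signal, with a detection call), made by the authors with Feature Extraction 10.7.3.1. A second deposited table holds the authors' log2 values, scaled to the 75th percentile in GeneSpring GX. Its 244 features with a value above 0 each matched 1 miRNA by value.

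Here the total gene signal was divided on each array by the 75th percentile over the 91 miRNAs detected on all arrays, floored at a common level (log2 of -7.22) and put on the log2 scale. miRNAs detected on at least 8 arrays and above the floor were tested, 233 in all; bta-let-7a* was not. Groups were compared with limma 3.58.1 (lmFit, eBayes, R 4.3.3) and Benjamini-Hochberg adjustment, with an adjusted p under 0.05 called. Depots of a steer are paired samples by the labels. The deviations of a steer's 2 arrays correlated with r of -0.72 to 0.65 in control steers and of -0.57 to 0.51 in high fat steers. Ratios between members were tested by exact permutation (12870 regroupings) or exact sign flips (256). The smallest SD of the log2 difference between any 2 arrays was 0.25, so none was a repeat of another. p-values measure the spread between steers, each sampled once per depot. The limma fit had no term for the steer, so its depot and interaction p-values do not use the pairing. Only the fit with the steer as a replicate block and the sign-flip test use it.

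The members and lists were chosen with earlier results of these data known. The named miRNAs are the 9 members, bta-miR-98, the miRNAs of neighbouring genes, bta-miR-181a and the 3 miRNAs most like bta-let-7b and bta-let-7g. The scripts were tested on simulated data. Alternatives covered the scaling, background correction, filter, test, blocks and each sample left out. The number of arrays limits the precision. Sequence features of the members were not analysed here.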

Additional observations from a re-analysis of the deposited data

Results flagged for a closer look

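In 36 sets of 8 arrays (the 8 tested members and the ratio of bta-let-7b to bta-let-7g, in each of 4 groups), 3 held 1 array far from the other 7, where chance gives about 1 in 20 sets. In control subcutaneous fat steer 405 had a bta-let-7b log2 scaled intensity of 6.41, with the other arrays between 5.20 and 5.60, and a log2 ratio of bta-let-7b to bta-let-7g of 7.08, with the others between 5.20 and 5.60. In control visceral fat steer 211 had a bta-let-7d log2 scaled intensity of 1.95, with the others between 1.31 and 1.57. Without steer 405 the change of bta-let-7g over bta-let-7b with diet in subcutaneous fat was 3.19, and without steer 211 the bta-let-7d depot difference on the control diet was 0.29 on the log2 scale.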

How the results depend on the processing

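The order of the members cannot change under scalings that divide an array by 1 number, so its holding there is no test of it. Quantile normalization, normexp and the spot intensities could change it and reordered some members. The signs of single members depended on the scaling. In subcutaneous fat the members called higher and lower under the high fat diet were 1 and 6, and became 0 and 8 by the 75th percentile over all miRNAs, 6 and 0 without scaling, 7 and 0 by the labelling spike-ins, 4 and 2 by bta-miR-181a, 2 and 4 by quantile normalization, 2 and 5 by normexp, 1 and 5 by spot intensities, 0 and 8 in the deposited values, and 0 and 6 by the methods' t-test with Bonferroni. In visceral fat they were 1 and 6, and became 0 and 8 by the 75th percentile over all miRNAs, 6 and 1 without scaling, 6 and 0 by the spike-ins, 4 and 2 by bta-miR-181a, 1 and 4 by quantile normalization, 1 and 5 by normexp and by spot intensities, 0 and 7 in the deposited values, and 0 called higher by the methods' t-test with Bonferroni. With the slide as a random block over both depots the counts stayed at 1 and 6. The correlation within slides was estimated at -0.014. As every group had a slide of its own, this block cannot separate slide from group, so the unchanged counts say nothing of a slide effect.

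Differences with diet that changed sign are given for subcutaneous, then visceral fat. Without scaling they were 1.31 and 0.89 for bta-let-7a, 1.14 and 0.68 for bta-let-7d, 1.22 and 0.79 for bta-let-7e and 2.13 and 1.63 for bta-let-7f, with 0.16 for bta-let-7b and 0.28 for bta-let-7c in subcutaneous fat and 2.12 for bta-let-7i in visceral fat. By the spike-ins they were 1.56 and 1.31 for bta-let-7a, 1.39 and 1.11 for bta-let-7d, 1.46 and 1.21 for bta-let-7e and 2.38 and 2.06 for bta-let-7f, with 0.41 for bta-let-7b and 0.53 for bta-let-7c in subcutaneous fat and 2.54 for bta-let-7i in visceral fat. By bta-miR-181a they were 0.41 and 0.34 for bta-let-7a, 0.24 and 0.14 for bta-let-7d, 0.31 and 0.24 for bta-let-7e and 1.22 and 1.09 for bta-let-7f, with 1.57 for bta-let-7i in visceral fat. By the 75th percentile over all miRNAs bta-let-7g had -3.49 and -3.95, and bta-let-7i -4.11 in subcutaneous fat. In the deposited values bta-let-7g had -0.75 and -0.57, and bta-let-7i -1.37 in subcutaneous fat. bta-let-7f had 0.45 by quantile normalization in subcutaneous fat, and bta-let-7i had 0.17 by normexp and 0.057 by spot intensities in visceral fat. bta-let-7a came to 0.00 by quantile normalization in both depots, and bta-let-7f to -0.035 by normexp in visceral fat. Leaving out 1 array moved bta-let-7i in subcutaneous fat between -0.032 and 0.10. The cause was not tested.

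The control diet's 2 members higher in visceral fat became 0 by the 75th percentile over all miRNAs, without scaling, by the spike-ins, by bta-miR-181a, by quantile normalization, by normexp, by spot intensities, in the deposited values and by the methods' t-test with Bonferroni, and 1 by the methods' t-test with Benjamini-Hochberg; leaving out 1 array gave 1 to 3. With the steer as a replicate block it was 1, and bta-let-7d was the one kept; the block changed no other member count. The high fat diet's 1 higher and 0 lower became 0 and 0 by the 75th percentile over all miRNAs and in the deposited values, 0 and 5 without scaling, 0 and 2 by the spike-ins, 0 and 1 by bta-miR-181a, 3 and 1 by quantile normalization, 2 and 1 by normexp, over miRNAs detected on all arrays and by the methods' t-test with Benjamini-Hochberg, and 1 to 2 and 0 to 1 on leaving out 1 array. By spot intensities the count was also 1, but bta-let-7b was called (adjusted p = 0.043) and bta-let-7d was not (adjusted p = 0.060). Without scaling bta-let-7d had -0.025 in control steers and -0.49 in high fat steers, and it had -0.15 on the high fat diet by the spike-ins, and bta-let-7e -0.48 and -0.14 on the high fat diet by these 2. Member counts for the interaction were 0 throughout.

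The 25 changed ratios of subcutaneous fat became 16 by normexp, and leaving out 1 array gave 25 to 26 in subcutaneous and 26 to 26 in visceral fat. Without the replicate block the depot ratios went from 2 to 4 in control steers and from 16 to 18 in high fat steers; leaving out 1 steer gave 2 to 6 and 0 to 0. bta-let-7a* was detected on 13 arrays, had a probe well above background on 10, and was above 0 in the deposited values on 0.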
